A study of Drosophila melanogaster with 2 samples.

Results

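The vacuolar ATPase (V-ATPase) and Rab genes of Drosophila melanogaster were examined for binding of Bab2, a BTB-domain transcription factor encoded at the bric-à-brac locus. Members were the protein-coding genes of the dm6 annotation whose symbols begin with Vha or with Rab or RabX followed by a digit, together with 7 named Vha genes. The rule found 65 of 13945 protein-coding genes, 29 of them V-ATPase genes and 36 with a Rab symbol. The accessory gene VhaM8.9 was found under its current symbol ATP6AP2. Of the 36 Rab symbols, 33 were Rab GTPases. The other 3 (Rab3GAP1, Rab3-GAP and Rab3-GEF) match by spelling only, since they regulate Rab3 and are not GTPases themselves. The small V0 e subunit genes VhaM9.7-a to VhaM9.7-d and VhaAC45RP lie outside the rule.

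Binding was measured by ChIP-seq in whole embryos of 0 to 24 h, males and females pooled, from a stable transgenic line (bab2-GFP) in which Bab2 carries eGFP at its C-terminus. An antibody against GFP was used for the precipitation. The 2 libraries, biological replicates 2 and 3 from separate biosamples, formed 1 group, so no comparison between conditions was possible. Peaks were deposited as 4 lists on dm6: 27372 peaks for replicate 2, 25804 for replicate 3, 24109 for the pooled reads and 4720 in the optimal list, which the authors kept for reproducibility. Each peak carries the authors' signal, on a scale that the sources used here leave unstated, and a summit, the base of highest signal. A gene was called when at least 1 of its transcription start sites (TSSs) had an optimal summit at a distance of 500 bp or less. The mixture of all embryonic tissues means that binding in few cells and weak binding in many cells cannot be told apart.

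The V-ATPase is a rotary proton pump. Its peripheral V1 sector hydrolyses ATP and turns a rotor in the membrane-embedded V0 sector, which carries protons into lysosomes, endosomes, secretory vesicles or out of the cell. In the fly several subunits are encoded by families of paralogues, some of which serve nearly every cell while others are used in few tissues. Rab proteins are small GTPases that mark individual membrane compartments and recruit the tethers and motors that move vesicles between them. Guanine nucleotide exchange factors (GEFs) load them with GTP, GTPase-activating proteins (GAPs) switch them off, and GDI and Rep carry them through the cytosol. The acidity that the pump generates and the membrane identity set by Rab proteins act along the same route from the plasma membrane to the lysosome.

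Bab2 summits lay at 21 of the 65 members (32.3%, exact 95% interval 21.2 to 45.1), against 20.1% of all protein-coding genes (2797 of 13945). The V-ATPase genes held 10 of 29 (34.5%, 17.9 to 54.3) and the Rab symbols 11 of 36 (30.6%, 16.4 to 48.1). Among the Rab GTPases alone the count was 10 of 33 (30.3%, 15.6 to 48.7). The intervals cover counting error only. The lower bound for all 65 members lies just above the value for all genes, whereas those for each family and for the GTPases lie below it. The intervals of the 2 families overlap over most of their length. When each summit was given only to its nearest TSS, 12 of 65 members were called (18.5%, against 14.7% of all genes). In the stronger 2360 optimal peaks the count was 11 (16.9%, against 11.7%), with 4 of 36 Rab symbols (11.1%). In the larger lists the members' shares were also above those of all genes. In the pooled list 35 of 65 (53.8%) had a summit, against 47.0% of all genes. In replicate 2 the count was 41 (63.1%, against 48.3%), and in replicate 3 it was 36 (55.4%, against 47.4%). The V-ATPase genes stood close to the background there, with 13 of 29 (44.8%) in the pooled list, whereas 22 of 36 Rab symbols (61.1%) had a pooled summit.

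**Figure D1:**
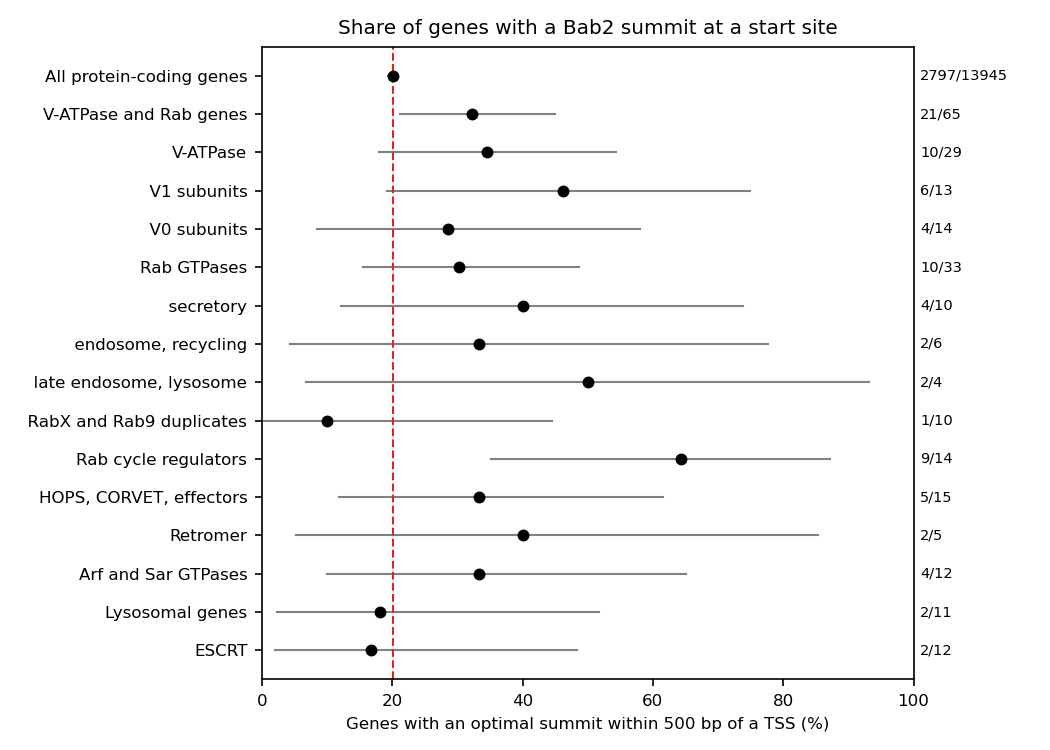
Percent of genes called in the optimal list (horizontal axis) for the families, their roles and the pathway lists, with exact 95% intervals as bars and called over all genes at the right. The dashed line is the 20.1% of all protein-coding genes; the intervals of the V-ATPase genes (10 of 29) and of the Rab GTPases (10 of 33) both cross it.

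The DNA under the summits is shown for 8 called genes taken in order of signal, 4 from each family, for Rab7, which holds a complete DRE, and for 1 paralogue that has no summit. Each stretch is the summit with up to 50 bp on either side, on the strand of the member gene. Bases annotated as untranslated region were left out, and a gene was passed over where fewer than 60 bases remained, which was so for Vha100-2, Rab39, Rab8 and Rab27. Vha36-1, Vha16-1 and RabX1 are likewise not shown. It was read from the RefSeq release 6 (dm6) genome, 5′ to 3′. Capitals mark matches to the motifs searched on both strands, which were DRE (TATCGATA), its inner letters CGATA, the CLEAR-like word TCACGTGA with its core E-box CACGTG, the core of Ohler motif 1 GTCACACT, the GAGA word (GAGAG), the TATA word (TATAAA), the Zelda word (CAGGTAG), the TA repeat (TATATATA) and the TAA repeat (TAATAA). A DRE contains CGATA, and TCACGTGA contains CACGTG. The window of Vha68-3, which has no summit, was placed at the members' median distance from the TSS. Rab7 and Vha68-3 were chosen after their values were seen.
Vha55 (chr3R:12627831-12627931, minus strand): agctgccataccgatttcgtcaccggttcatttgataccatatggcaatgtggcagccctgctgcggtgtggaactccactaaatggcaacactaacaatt
Vha16-5 (chr2L:10737279-10737344, minus strand): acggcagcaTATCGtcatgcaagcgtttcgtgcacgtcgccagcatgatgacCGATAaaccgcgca
Vha68-1 (chr2L:13004142-13004242, minus strand): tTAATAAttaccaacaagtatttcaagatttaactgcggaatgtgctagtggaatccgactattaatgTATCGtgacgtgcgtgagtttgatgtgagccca
Vha68-2 (chr2L:12974097-12974197, plus strand): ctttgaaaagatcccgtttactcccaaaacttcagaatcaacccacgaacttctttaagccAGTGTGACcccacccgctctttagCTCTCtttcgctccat
Rab3GAP1 (chr2L:1611276-1611376, minus strand): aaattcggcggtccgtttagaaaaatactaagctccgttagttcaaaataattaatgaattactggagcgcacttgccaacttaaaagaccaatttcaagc
Rab5 (chr2L:2363747-2363847, minus strand): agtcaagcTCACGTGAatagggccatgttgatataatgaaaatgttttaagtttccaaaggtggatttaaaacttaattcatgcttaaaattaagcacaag
Rab30 (chr2L:7032629-7032720, minus strand): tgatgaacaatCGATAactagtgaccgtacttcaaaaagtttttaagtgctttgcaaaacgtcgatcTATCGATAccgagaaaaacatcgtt
Rab40 (chrX:12463405-12463505, minus strand): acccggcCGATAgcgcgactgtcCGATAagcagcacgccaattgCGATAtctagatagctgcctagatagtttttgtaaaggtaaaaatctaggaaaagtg
Rab7 (chr3R:23992922-23993007, plus strand): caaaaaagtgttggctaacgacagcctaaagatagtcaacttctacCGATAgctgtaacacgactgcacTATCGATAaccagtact
Vha68-3 (chr2L:12978608-12978684, plus strand, no summit): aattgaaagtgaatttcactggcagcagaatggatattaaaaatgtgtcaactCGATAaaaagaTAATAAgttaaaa

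In the V1 sector 6 of 13 genes were called (46.15%, exact interval 19.2 to 74.9). The interval includes the 20.1% of all genes. Vha68-1 and Vha68-2 encode the catalytic A subunit, which binds and hydrolyses ATP. The peak of Vha68-1 (chr2L:13003980-13004403) had a signal of 227.3 in the optimal list, 89.83 in replicate 2 and 135.1 in replicate 3. That of Vha68-2 (chr2L:12973935-12974358) had 139.5, with 70.91 and 63.76 in the replicates. Both rest on similar support in the 2 libraries, and the third paralogue, Vha68-3, had a summit in none of the 4 lists. Vha55, the only gene for the B subunit, had 262.5 at chr3R:12627669-12628092, with 84.9 in replicate 2 and 174.5 in replicate 3. It was the strongest peak of the V1 sector, and a second summit of 81.14 lay 261 bp upstream of a Vha55 TSS.

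The V1 central stalk and its peripheral stators were also represented. Vha36-1, 1 of 3 genes for the D subunit of the rotor shaft, had a signal of 179.1 at chr2R:15541195-15541618 (80.9 and 102.4 in replicates 2 and 3). Vha26, the single gene for the E subunit of the peripheral stalk, had 82.76 at chr3R:5591289-5591712 (34.68 and 52.33). Vha13, the single gene for the G subunit that pairs with E in that stalk, had 87.12 at chr3R:19644293-19644716 (32.11 and 51.54). The peripheral stalk genes were thus among the weakest called members, close to the lowest signal of the optimal list (76.1). Vha44, the C subunit that holds the sectors together, was not called but had a pooled summit of 59.52. Its replicate values were 40.74 and 21.67. Vha14-1 and Vha14-2 (F subunit), VhaSFD (the regulatory H subunit), Vha36-2 and Vha36-3 had a summit in no list, and the optimal summit nearest to Vha14-1 lay 870 bp away.

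In the V0 sector 4 of 14 genes were called (28.6%, exact interval 8.4 to 58.1), and the strongest member of all was among them. The interval includes the 20.1% of all genes and overlaps that of the V1 sector. Vha100-2, a paralogue of the large a subunit through which protons cross the membrane, had 499.8 at chr3R:18397099-18397360, rank 159 of 4720. Its signal was 215.5 (rank 173) in replicate 2 and 272.5 (rank 176) in replicate 3, so the 2 libraries placed it at nearly the same rank. This summit lay in a Vha100-2 intron, 317 bp upstream of an internal Vha100-2 TSS, and also inside the 5′ untranslated region of the divergent neighbour Vti1b, a SNARE gene. Vha100-1, the paralogue known for a role at neuronal synapses, had 97.17 at chr3R:29130817-29131240 (38.59 and 55.81). The other a-subunit paralogues were weaker or without a summit. Vha100-4 and Vha100-5 appeared in replicate 2 alone (15.42 and 16.17), and Vha100-3 in no list.

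The c subunit forms the proteolipid ring that rotates in the membrane. Vha16-5 had a signal of 244.9 at chr2L:10737278-10737387 (120.4 and 126.5 in replicates 2 and 3), and Vha16-1, the broadly used paralogue, had 162.5 at chr2R:6633030-6633453 (59.05 and 108.0). Vha16-2, Vha16-3 and Vha16-4 had none. VhaPPA1-1, a related ring subunit, was listed in replicate 2 alone (18.77), and VhaPPA1-2 in no list. Of the d subunit genes, which cap the ring, VhaAC39-2 had a pooled summit of 36.24 with 23.96 in replicate 3, and VhaAC39-1 was in replicate 3 alone (17.05). The accessory gene ATP6AP2, the prorenin receptor homologue, had a pooled summit of 69.8 (24.33 and 43.72). The other accessory gene, VhaAC45, was in no list.

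Counted by subunit rather than by gene, 7 of the 12 subunits in the rule had at least 1 called gene (A, B, D, E, G, a and c), and 9 had one with a pooled summit. A subunit with more genes has more chances of a called gene, so these subunit counts cannot be set against the share of all genes. Of the 5 subunits with a single gene, 3 were called (exact interval 14.7 to 94.7%). Of the 22 genes in paralogue families 7 were called (31.8%, 13.9 to 54.9). Both intervals include the 20.1% of all genes, and they overlap each other. In each of the A, D, a and c families some paralogues had an optimal summit while at least 1 had no summit in any list. Outside the rule, VhaM9.7-b had 125.2 and was the only 1 of the 5 further pump genes called.

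**Figure D2:**
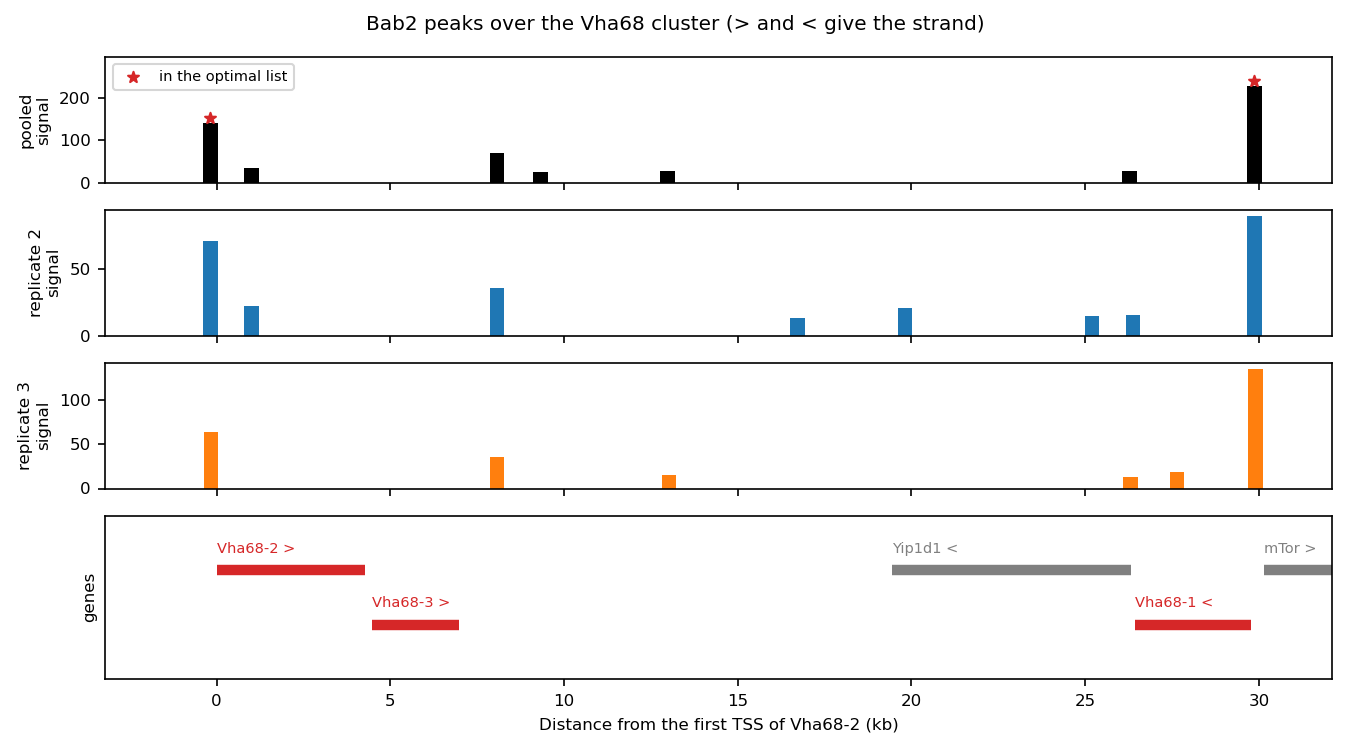
The Vha68 cluster on chromosome arm 2L, with distance from the first Vha68-2 TSS in kb on the horizontal axis, genes as horizontal bars in the lowest panel and the pooled and replicate peaks as vertical bars at the height of the authors' signal. A star marks a peak of the optimal list. Optimal peaks stand at the starts of Vha68-2 (139.5) and Vha68-1 (227.3), and none stands at Vha68-3.

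The Vha68 genes lie in 1 cluster, so their differences can be read along a single stretch of chromosome. Vha68-3 starts 4464 bp from the first Vha68-2 TSS on the same strand. No listed summit lay within 500 bp of its start. The pooled list had a peak of 70.62 beyond the end of Vha68-3, with 35.62 in replicate 2 and 35.97 in replicate 3. It fell under the lowest signal of the optimal list. Vha68-1 is transcribed towards the other 2 genes, and its summit lay between its own start and that of mTor, the nutrient-sensing kinase.

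Rab genes were called in each of the groups of roles, with a lower median signal than the V-ATPase genes. The median optimal signal was 170.8 over the called V-ATPase genes, 101.04 over the called Rab symbols and 145.4 over all called genes. Above the median of the optimal list (127.8) stood 7 of 10 V-ATPase genes and 4 of 11 Rab symbols. Signals of the 10 called GTPases ran from 77.7 to 173.4. No test of this difference was made, because the gene lists were described by counts and medians only.

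Of the 10 secretory Rab genes 4 were called (exact interval 12.2 to 73.8%). The interval includes the 20.1% of all genes. Rab30, a Golgi-associated GTPase, had the highest signal among them, 150.2 at chr2L:7032467-7032890, with 61.03 in replicate 2 and 82.8 in replicate 3. Rab8, which acts in exocytosis to the plasma membrane, had 101.04 at chr3L:19870814-19871237 (51.7 and 51.13). Rab1, required for transport from the endoplasmic reticulum to the Golgi, had 83.66 at chr3R:21268911-21269334 (53.94 and 32.56). Rab1 leaned the other way from most members, with rank 2620 in replicate 2 and 6459 in replicate 3. Rab27, which acts in regulated secretion, had 77.7 at chrX:1476867-1477290 (37.79 and 40.22) and was the weakest called member.

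The endosomal Rab genes include the best-known markers of the pathway. Rab5, which defines early endosomes, had a signal of 157.0 at chr2L:2363585-2364008, with 53.16 in replicate 2 and 102.7 in replicate 3. Its summit lay in a Rab5 intron, 293 bp upstream of an internal Rab5 TSS. Rab11, the marker of recycling endosomes, had 98.79 at chr3R:21110952-21111375 (35.95 and 64.91) and a second summit of 91.65 at 43 bp upstream. A stronger optimal peak of 372.5 lay in a Rab11 intron beyond the 500 bp window (chr3R:21113135-21113304). Rab7, the GTPase of late endosomes and lysosomes, had 86.18 at chr3R:23992760-23993183 (36.74 and 52.77). Rab39, grouped with the late endosomal genes, had 173.4 at chrX:7734419-7734842 (71.62 and 107.1). In all, 2 of 6 genes of early and recycling endosomes and 2 of 4 late endosomal and lysosome-related genes were called, against 20.1% of all genes. Rab4, Rab14, Rab21 and Rab35 in the first group and Rab9 and Rab32 in the second were not.

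The remaining called genes with a Rab symbol came from smaller groups. Rab3GAP1, a subunit of the complex that inactivates Rab3, had a signal of 346.3 at chr2L:1611247-1611428, the highest of any Rab symbol, with 159.5 in replicate 2 and 183.8 in replicate 3. Rab40, whose family joins a GTPase to a SOCS box, had 112.7 at chrX:12463243-12463666 (48.11 and 62.11 for the replicate summits within 200 bp). Among the 10 fly-lineage genes of the RabX and Rab9 type 1 was called (exact interval 0.25 to 44.5%). That interval includes the 20.1% of all genes. The called gene was RabX1, with 96.25 at chr2R:23523448-23523871 (37.48 and 55.82). Rab3 itself, the synaptic vesicle GTPase, had a summit in no list.

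**Figure D3:**
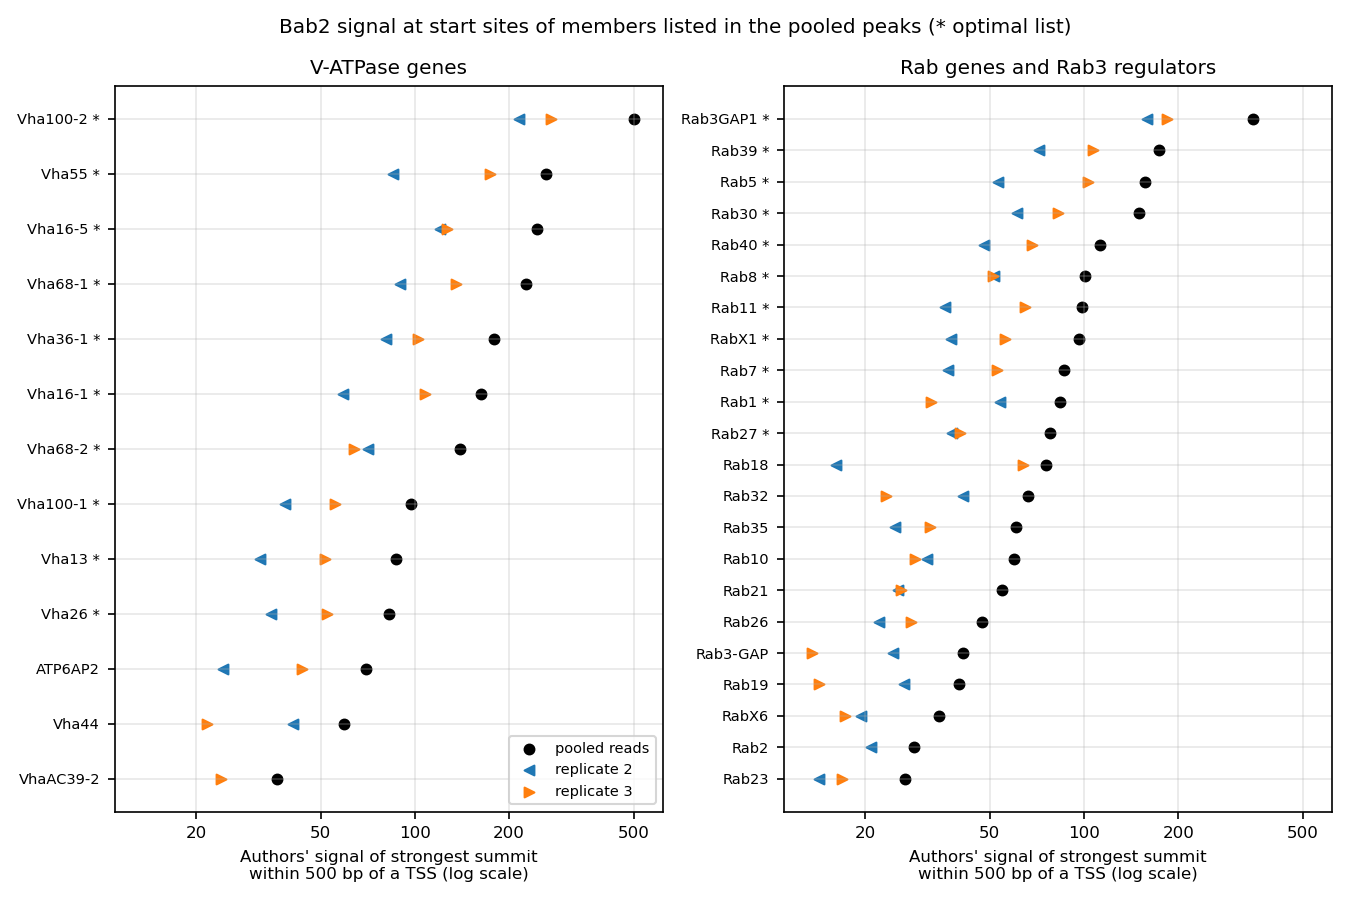
Authors' signal of the strongest summit within 500 bp of a TSS (horizontal, log scale) for each member in the pooled list, with pooled reads as circles and replicates 2 and 3 as left and right triangles; an asterisk marks genes in the optimal list. Vha100-2 (499.8) and Rab3GAP1 (346.3) stand highest, and Rab18 shows the widest split between replicates (16.15 and 64.04).

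Of the 44 members without an optimal summit, 14 had a summit in the pooled list, 8 in a replicate list only and 22 in none. The pooled signals of the 14 ran from 26.76 to 75.43. Rab18, a GTPase associated with lipid droplets, was nearest to the optimal list, with 75.43 at rank 4769 of the pooled list. Its value was 16.15 in replicate 2 (rank 18547) and 64.04 in replicate 3 (rank 2735), so it rests mostly on 1 library. Rab32, which acts in lysosome-related pigment granules, had 66.35 with the opposite lean (41.17 and 23.36). Rab35 had 60.54, Rab10 59.75, Rab21 54.68, Rab26 47.38, Rab3-GAP 41.11, Rab19 39.97, RabX6 34.54, Rab2 28.69 and Rab23 26.76. For Rab2 the pooled summit was matched in replicate 2 alone (20.89).

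Rab14 was in both replicate lists but not in the pooled one, and its strongest summits lay at different sites. They were 14.74 at chr2L:14356997-14357416 in replicate 2 and 16.95 at chr2L:14354911-14355320 in replicate 3, so these values do not replicate each other. Rab4 (16.81), RabX4 (14.96) and RabX5 (13.59) were in replicate 2 alone. These values are close to the lowest signals of the replicate lists, 12.95 in replicate 2 and 12.83 in replicate 3. The Rab genes with a summit in no list were Rab3, Rab3-GEF, Rab6, Rab9, Rab9D, Rab9Db, Rab9E, Rab9Fa, Rab9Fb and RabX2. Rab6 is the Golgi GTPase, and the Rab9-named and RabX genes are largely products of gene duplication in flies. Members without any summit made up 33.8% of the 65, against 42.8% of all genes. A gene without a listed summit may still be bound below the depth of these lists.

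Optimal peaks also lay inside 6 member genes beyond the 500 bp window. The share of all genes with such a peak is not given here. Besides Rab11 these were Rab14 (225.5), Rab32 (166.5), Rab23 (113.6) and Vha100-2 (79.71), all in introns, and Vha13 (87.14), in its 3′ untranslated region. Rab14, Rab32 and Rab23 were not called at their starts, so the listed signal was higher within these genes than within 500 bp of their TSSs. For Rab14 the nearest optimal summit lay only 575 bp from a TSS. Rab14 was called with the 1000 bp window and when any base of the peak counted.

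The 2 libraries placed the 21 called members in similar positions. Each had a summit of both replicates within 200 bp of the optimal summit, as did 4701 of the 4720 optimal peaks. The optimal list was kept for reproducibility between these same libraries, so such closeness was built into the choice of peaks. The members' median offset was 9 bp in replicate 2 and 10 bp in replicate 3. The largest offsets were 93 and 117 bp. All 21 members were in each of the 4 lists, as were 2783 of the 2797 called genes overall. Among the strongest 4720 peaks of both replicates stood 16 of the 21, against 79.4% of all optimal peaks with a summit in both. The ratio of the replicate 2 to the replicate 3 signal ran from 0.486 for Vha55 to 1.66 for Rab1. In rank, 14 of 21 stood better in replicate 3, compared with 52.2% of all such optimal peaks. The q-value gave no further order, since 18 of 21 sat at the ceiling of the list (−log10 q of 3.90), and only Rab1 (3.22), Vha26 (3.08) and Rab27 (2.73) were below it.

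Summits lay upstream of the member TSS at 20 of 21 genes, while 87.2% of all called genes had theirs upstream. The exception was Rab8, with the summit at 52 bp downstream in its 5′ untranslated region. The median position was -152 bp (range -343 to 52), against -124 bp over all called genes (quartiles -219 and -54). More than 200 bp upstream stood 7 of 21 members (Rab40, Vha100-2, Rab5, Rab39, Vha16-5, Vha26 and Rab11), compared with 29.1% of all called genes.

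**Figure D4:**
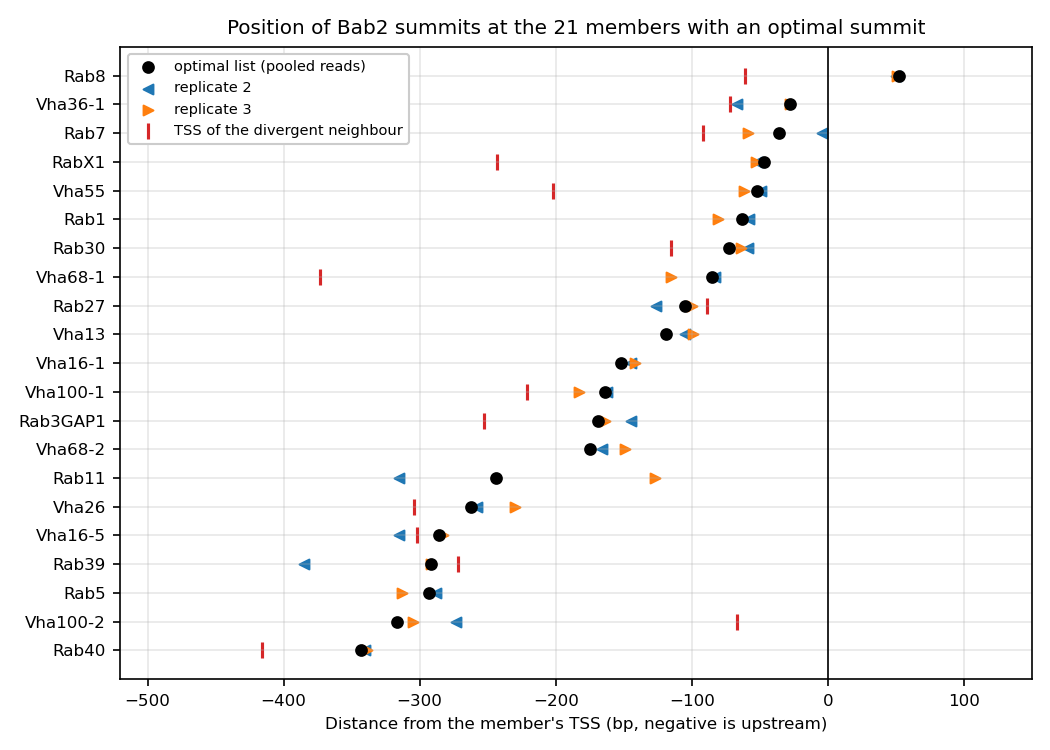
Position of the summit relative to the member TSS in bp (horizontal, negative is upstream) for the 21 called members, from pooled reads (circles) and replicates 2 and 3 (triangles), with the TSS of a divergent neighbour as a red tick. The tick for Rab5 belongs to another Rab5 TSS and falls outside the axis; the replicate summits lie within 117 bp of the optimal ones, and only Rab8 has its summit downstream.

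Many of these summits were shared with a neighbouring gene. At 15 of 21 called members the summit also lay within 500 bp of another gene's TSS, as it did for 59.0% of all called genes. The member's own TSS was the nearest for 12 of 21. The neighbour was nearer at Vha100-2 (Vti1b), Rab3GAP1 (CG14352), Vha16-5 (CG12299), Rab39 (Pdp), Rab30 (Caper), Rab40 (CG42258), Vha100-1 (dgt6), Vha26 (noi) and Rab27 (mei-38). At Vha36-1, where its own TSS was the nearest, the summit lay 28 bp from that TSS and 44 bp from that of CG8187. For all 15 shared summits the peak lists do not tell which start the binding belongs to.

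Divergent promoters were common among the members, with 27 of 65 (41.5%) having a divergent TSS within 500 bp, against 27.4% of all genes. Among these 27, 16 were called (59.3%), compared with 40.9% of all genes of that kind. Among the 38 members without such a neighbour 5 were called (13.2%), compared with 12.2% of all such genes. Those 5 were Vha68-2, Vha16-1, Vha13, Rab1 and Rab11. Annotated start sites moved with the calls as well. Members with 1 TSS were called in 12 of 48 cases (against 15.5% of all genes with 1 TSS), and those with 2 or more in 9 of 17 (52.9%, against 32.8%). The part of promoter arrangement and of TSS number in the members' share was not tested.

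CGATA was present within 50 bp of the summit at 12 of 21 called members (57.1%), against 24.3% of the 2190 optimal summits near any TSS (500 bp or less) and 16.9% of all 4720. It was found at 8 of 11 Rab symbols and 4 of 10 V-ATPase genes. A complete DRE, the site known to be bound by DREF at many housekeeping promoters, was present at Rab30, Rab7 and Rab27 (3 of 21, against 4.16% of TSS summits), starting 26, 19 and 35 bp after the summit. The printed Rab30 and Rab7 stretches show it in capitals, and the Rab40 stretch shows 3 separate CGATA words without a DRE. In these summit windows the CLEAR-like word was present at Rab5 alone and in 0.0913% of TSS summits. In mammals this palindrome is the binding site through which TFEB-family factors act on lysosomal genes.

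The windows of Vha55, Rab3GAP1, Rab39 and Vha16-1 matched none of the motifs searched. The core of Ohler motif 1 was present at Vha68-2 (1.60% of TSS summits), printed above as its reverse complement. TAATAA was present at 3 of 21 members (16.5% of TSS summits), TATAAA at Vha100-1 alone (16.9%) and GAGAG at 2 (9.50%), while CAGGTAG and TATATATA were absent from all 21. Median GC content was 39.6% in the members' windows and 35.6% in the TSS summits. The Vha68-3 stretch, without a summit, also holds CGATA and TAATAA.

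In the 300 bp promoters (250 bp before and 50 bp from the TSS), the families differed in the words they carried. DRE was present in 13 of 56 Rab promoters (23.2%) and 2 of 41 V-ATPase promoters (4.88%), against 7.98% of all promoters. The core of Ohler motif 1 showed the opposite order, with 6 of 41 V-ATPase promoters (14.6%) and 1 of 56 Rab promoters (1.79%), against 5.82% of all. The CLEAR-like word was present in 2 of 41 V-ATPase promoters (4.88%) and 0 of 56 Rab promoters, against 0.151% of all. CGATA was present in 24 of 39 promoters of called members (61.5%) and 5 of 24 promoters of members in no list (20.8%), against 45.7% of all. Among all promoters with an optimal summit at 500 bp or less the share was 54.2%. Promoters of 1 gene overlap in part and are not independent.

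Partners of the same route were called to differing extents. Of 14 regulators of the Rab cycle 9 were called (64.3%, exact interval 35.1 to 87.2, against 20.1% of all genes). All 14 had a pooled summit (against 47.0%). A divergent TSS within 500 bp was present at 8 of the 14 (57.1%). Of all genes of that kind 40.9% were called. The part of this arrangement in the regulators' share was not tested. The called regulators included spri (362.3), a Rab5 exchange factor. Ccz1 (299.0) and Mon1 (244.1) together form the exchange factor that activates Rab7. Gdi (119.4) and Rep (114.8) carry Rab proteins in the cytosol. Evi5 (102.2), Rich (91.95), sky (90.99) and GAPcenA (80.39) completed the list. Rabex-5, another Rab5 exchange factor, was not called and had a pooled summit of 67.2.

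Among 15 HOPS, CORVET and Rab effector genes 5 were called (33.3%, against 20.1% of all genes). Vps33B, a tether subunit, had a signal of 631.1 and the Rab5 effector Rbsn-5 had 518.0, both above every member of the 2 families. The others were car (109.5) and Vps39 (80.39), subunits of the lysosomal tether HOPS, and Rph (76.66), the Rab3 effector rabphilin. In the ESCRT machinery, which sorts cargo into multivesicular bodies, 2 of 12 genes were called (16.7%, below the share of all genes), Vps36 (427.3) and Vps2 (109.4). In the retromer list 2 of 5 were called, Vps29 (159.1) and Snx3 (262.5), the second through the same peak as Vha55.

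Of the 11 lysosomal genes 2 were called (18.2%, near the 20.1% of all genes), CtsL1 (186.7) and CtsB (130.9), both proteases of the cathepsin family. The other cathepsins of the list, cathD and CtsF, were not called and had pooled summits of 31.98 and 28.63. In the related Arf and Sar family of GTPases 4 of 12 were called (33.3%, 95% interval 9.9 to 65.1, against 20.1% of all genes). They were Arl1 (288.7), Arl5 (147.9), Arl8 (95.26) and Arf1 (78.54). None of the 3 other genes tied to the pump was called (exact interval 0 to 70.8%, against 20.1% of all genes). The rabconnectin genes Rbcn-3A and Rbcn-3B, which promote its assembly, had pooled summits of 44.47 and 39.92, and Mitf, the fly member of the TFEB family, had none.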

How the data were processed

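Peaks were deposited in narrowPeak format. The relaxed lists were made as input to the irreproducible discovery rate procedure and the optimal list by it, per the README files the authors deposited. The aligner, the peak caller and the read depth are not given in the sources used here, and the control experiment named in the labels was not analysed here. The authors' deposited signal and −log10 q-value were used to describe and rank peaks within a list, and summits were computed from the deposited offset in bases. Lists on dm3 were not used.

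TSSs came from the Ensembl release 115 annotation (FlyBase 6.54, 19252 positions). Members and lists were chosen with earlier results of these data known. Every called member was named with its peak, and every other member with the lists that hold it. Rab3-GAP was added to the Rab3 regulators after the files had been read. Shares carry Clopper-Pearson 95% intervals. Gene lists were described without a test. Counting and motif search were tested on simulated data. Values were computed in Python 3.11.15 (scipy 1.17.1, pandas 2.3.3, numpy 2.4.6) and drawn with matplotlib 3.10.9.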

Additional observations from a re-analysis of the deposited data

How the results depend on the processing

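Of the 65 members, 21 were called in the main analysis. In the stronger 2360 optimal peaks 11 remained (16.9%; 4 Rab symbols), against 11.7% of all genes. The whole pooled list gave 35 (53.8%; 22 Rab symbols), against 47.0%. With each summit given only to its nearest TSS there were 12 (18.5%; 6 V-ATPase genes and 6 Rab symbols), against 14.7%. The share of all genes was 16.0% with a 250 bp window, 23.4% with 1000 bp and 21.6% when any base of the peak counted, and the members' counts were then 15, 24 and 22. The median position was -85 bp with the 250 bp window and -112 bp for members with 1 TSS. Taking as many of the strongest peaks of a single replicate as the optimal list holds gave 20 to 21 members. Without replicate 3, Rab11, Vha13 and Vha26 were lost and Rab32 and Vha44 gained. Without replicate 2, Rab1 and Rab27 were lost and Rab18 and ATP6AP2 gained. Vha16-1, Vha36-1, Vha55, Vha68-1 and Vha68-2 were called under every one of these settings. No paired analysis was possible because there was 1 group. The number of genes limits the shares, and the unstated read depth limits the reading of genes without a summit.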
